A study of Mus musculus with 36 samples.

Results

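The 10 genes described here set much of the metabolic programme of the liver and were followed across genotype and feeding state. They are the peroxisome proliferator-activated receptors Ppara, Ppard and Pparg, the coactivators Ppargc1a and Ppargc1b, Rxra, the dimer partner of many receptors, the xenobiotic receptors Nr1i2 and Nr1i3, and the orphan receptors Hnf4a and Esrra. They were taken by gene symbol from the deposited count table, which gave 10 of 38283 genes, and the rule used no measured value. RNA was measured in liver of mice carrying a truncating knock-in in Pik3r1, which encodes regulatory subunits of the lipid kinase that relays the insulin signal, to ask how impaired insulin signalling alters the liver. There were 36 mice, 6 in each of 6 groups: wild-type (WT) and heterozygous Pik3r1 WT/Y657* mice (here mutant mice) that were fed chow ad libitum, fasted for 16 h, or fasted and then refed chow for 6 h. All were on a C57Bl/6J background and 16 weeks old at study, and the study describes the fed and fasted mice as males, with littermates as the WT mice. The allele was made by homologous recombination with a LoxP-flanked neomycin cassette, and is carried in every tissue, so that the liver was studied in a whole animal with altered insulin action. Counts per gene cannot show the changed codon, so they do not check the genotype labels.

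Nuclear receptors are transcription factors whose activity is set by small lipophilic ligands. PPARα, encoded by Ppara, binds fatty acids as a heterodimer with the retinoid X receptor and drives fatty acid oxidation and ketone body production in the fasted liver. PGC-1α and PGC-1β, encoded by Ppargc1a and Ppargc1b, bind such receptors and raise their activity, HNF4α maintains hepatocyte identity, ERRα acts on mitochondrial genes, and PXR (Nr1i2) and CAR (Nr1i3) induce enzymes that clear drugs and bile acids.

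Library totals ran from 8839481 to 19542778 counts with a median of 13596664. Of all genes, 13945 passed the filter on low counts, and all 10 members were among them. Levels below are in CPM, counts scaled to a common library total after TMM normalization. Differences are log2 fold changes from the quasi-likelihood test of edgeR, with p-values adjusted by Benjamini and Hochberg's method over the 13945 genes and 0.05 as the threshold for a call. Whole liver was sequenced, so fewer cells of a type and less RNA per cell cannot be told apart. The 7 hepatocyte markers in the table were high in all groups, with summed medians from 64945 CPM in fed mutant to 91686 CPM in fasted WT mice. In fed mice the sum ran from 67173 over 76968 to 86498 CPM in WT and from 52152 over 64945 to 87680 CPM in mutant mice (lowest, median, highest). Of the 7, 0 were higher in fed mutant mice (median log2 fold change -0.17, against 0.01 over all genes), and 0 were called. Macrophage markers, 7 in the table, had a higher summed median in fed mutant mice (460 CPM, range 209 to 721) than in fed WT mice (258 CPM, range 221 to 310), although none of them was called. Stellate cell markers were also higher in sum in fed mutant mice (median 519 CPM, range 449 to 661) than in fed WT mice (median 433 CPM, range 313 to 493). Of these 8, 2 (25%) were called higher, where 2.37% of all genes tested were called. Lymphocyte markers were near 0 in both, at summed medians of 4.05 CPM (range 2.33 to 9.76) and 1.57 CPM (range 1.14 to 2.62). Of the 5 tested, 1 (20%, against the same 2.37%) was called higher in mutant mice. The part of these cells in the fed differences below was not tested.

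The promoters of Ppara, Rxra, Nr1i3 and Hnf4a are shown here because these are the 4 members called in a test that compares the genotypes. Nr1i3 was called only in a contrast over the 3 feeding states that was added after the values were seen. They were taken from RefSeq on GRCm38.p6, and 9 of the 10 members had an entry. Each covers 250 bases before to 50 bases after an annotated start, and capitals mark matches on either strand to the nuclear receptor half-site AGGTCA, the E-box CACGTG or the GC box GGGCGG.
Ppara, chr15:85735526-85735825, plus strand: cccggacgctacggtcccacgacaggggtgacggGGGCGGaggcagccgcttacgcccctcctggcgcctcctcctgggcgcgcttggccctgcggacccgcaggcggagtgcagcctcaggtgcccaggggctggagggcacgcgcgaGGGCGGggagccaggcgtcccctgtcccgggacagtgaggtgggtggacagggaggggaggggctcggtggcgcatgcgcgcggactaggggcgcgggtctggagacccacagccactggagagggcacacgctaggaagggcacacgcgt
Rxra, first start, chr2:27676951-27677250, plus strand: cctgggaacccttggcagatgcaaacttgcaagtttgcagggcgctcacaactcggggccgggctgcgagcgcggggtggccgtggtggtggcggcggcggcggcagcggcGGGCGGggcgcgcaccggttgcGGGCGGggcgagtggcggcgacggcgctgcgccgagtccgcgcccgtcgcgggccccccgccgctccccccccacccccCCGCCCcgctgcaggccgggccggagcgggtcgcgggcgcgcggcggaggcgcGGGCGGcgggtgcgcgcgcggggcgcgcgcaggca
Rxra, second start, chr2:27709042-27709341, plus strand: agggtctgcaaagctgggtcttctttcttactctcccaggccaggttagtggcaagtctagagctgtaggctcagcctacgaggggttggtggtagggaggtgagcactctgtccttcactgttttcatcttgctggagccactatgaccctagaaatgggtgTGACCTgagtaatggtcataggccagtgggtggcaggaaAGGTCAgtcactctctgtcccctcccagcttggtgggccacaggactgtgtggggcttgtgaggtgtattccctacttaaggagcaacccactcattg
Nr1i3, chr1:171213720-171214019, plus strand: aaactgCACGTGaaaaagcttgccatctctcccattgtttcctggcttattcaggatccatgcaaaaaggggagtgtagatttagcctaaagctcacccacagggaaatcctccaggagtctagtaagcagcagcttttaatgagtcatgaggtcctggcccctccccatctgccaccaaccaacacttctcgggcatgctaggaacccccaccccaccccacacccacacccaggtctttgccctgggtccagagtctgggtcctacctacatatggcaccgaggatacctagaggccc
Hnf4a, first start, chr2:163506607-163506906, plus strand: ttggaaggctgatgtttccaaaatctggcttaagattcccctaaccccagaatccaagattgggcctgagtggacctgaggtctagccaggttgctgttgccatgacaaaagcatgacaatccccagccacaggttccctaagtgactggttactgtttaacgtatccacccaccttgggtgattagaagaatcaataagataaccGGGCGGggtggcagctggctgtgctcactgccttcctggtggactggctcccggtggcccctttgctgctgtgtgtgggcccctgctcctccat
Hnf4a, second start, chr2:163546905-163547204, plus strand: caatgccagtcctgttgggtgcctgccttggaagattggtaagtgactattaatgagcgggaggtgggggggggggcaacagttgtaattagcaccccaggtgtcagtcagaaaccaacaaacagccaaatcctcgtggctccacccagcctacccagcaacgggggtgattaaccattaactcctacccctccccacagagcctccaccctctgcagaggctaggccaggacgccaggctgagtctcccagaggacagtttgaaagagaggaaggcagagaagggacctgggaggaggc

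The half-site AGGTCA was found in 16.3% of 32817 promoters of this length, and in 3 of 13 promoters of the members, among them the second start of Rxra with 2 matches. No member promoter held the direct repeat of AGGTCA spaced by 1 base, to which PPAR-RXR dimers bind, which 0.0396% of all promoters held, nor the repeat spaced by 4 bases, which 0.0152% held. The GC box, which lies in 35.6% of all promoters, had 2 matches before the start of Ppara, 4 around the first start of Rxra and 1 before the first start of Hnf4a. The single E-box match in Nr1i3 compares with a share of 7.15% over all promoters. The cyclic AMP response element TGACGTCA was in none of the 13 and in 1.79% of all, and TATAAA was in 1 of 13 and in 13.6% of all. Such matches describe these windows only.

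Levels of the members differed widely. Per kilobase of summed exon length in fed WT mice, Hnf4a was highest at 142 ± 14.1 CPM per kb (SD, n = 6), followed by Rxra at 93.4 ± 5.97 and Ppara at 39.4 ± 4.22 CPM per kb. Nr1i2 stood at 27.2 ± 4.19 CPM per kb, and the place of Nr1i3 depended on the length used, at 13.5 CPM per kb over all exons and 42.0 over the principal transcript. The lower end was in the same order with both lengths: Esrra (4.79 ± 0.338 CPM per kb), Pparg (3.44 ± 1.42), Ppargc1b (1.85 ± 0.327), Ppargc1a (0.938 ± 0.0746) and Ppard (0.36 ± 0.103). Pparg overlapped both of its neighbours within 1 SD. Ppard, the ubiquitous member of the family, had only 13 to 51 counts per library, which limits what could be detected for it.

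**Figure D1:**
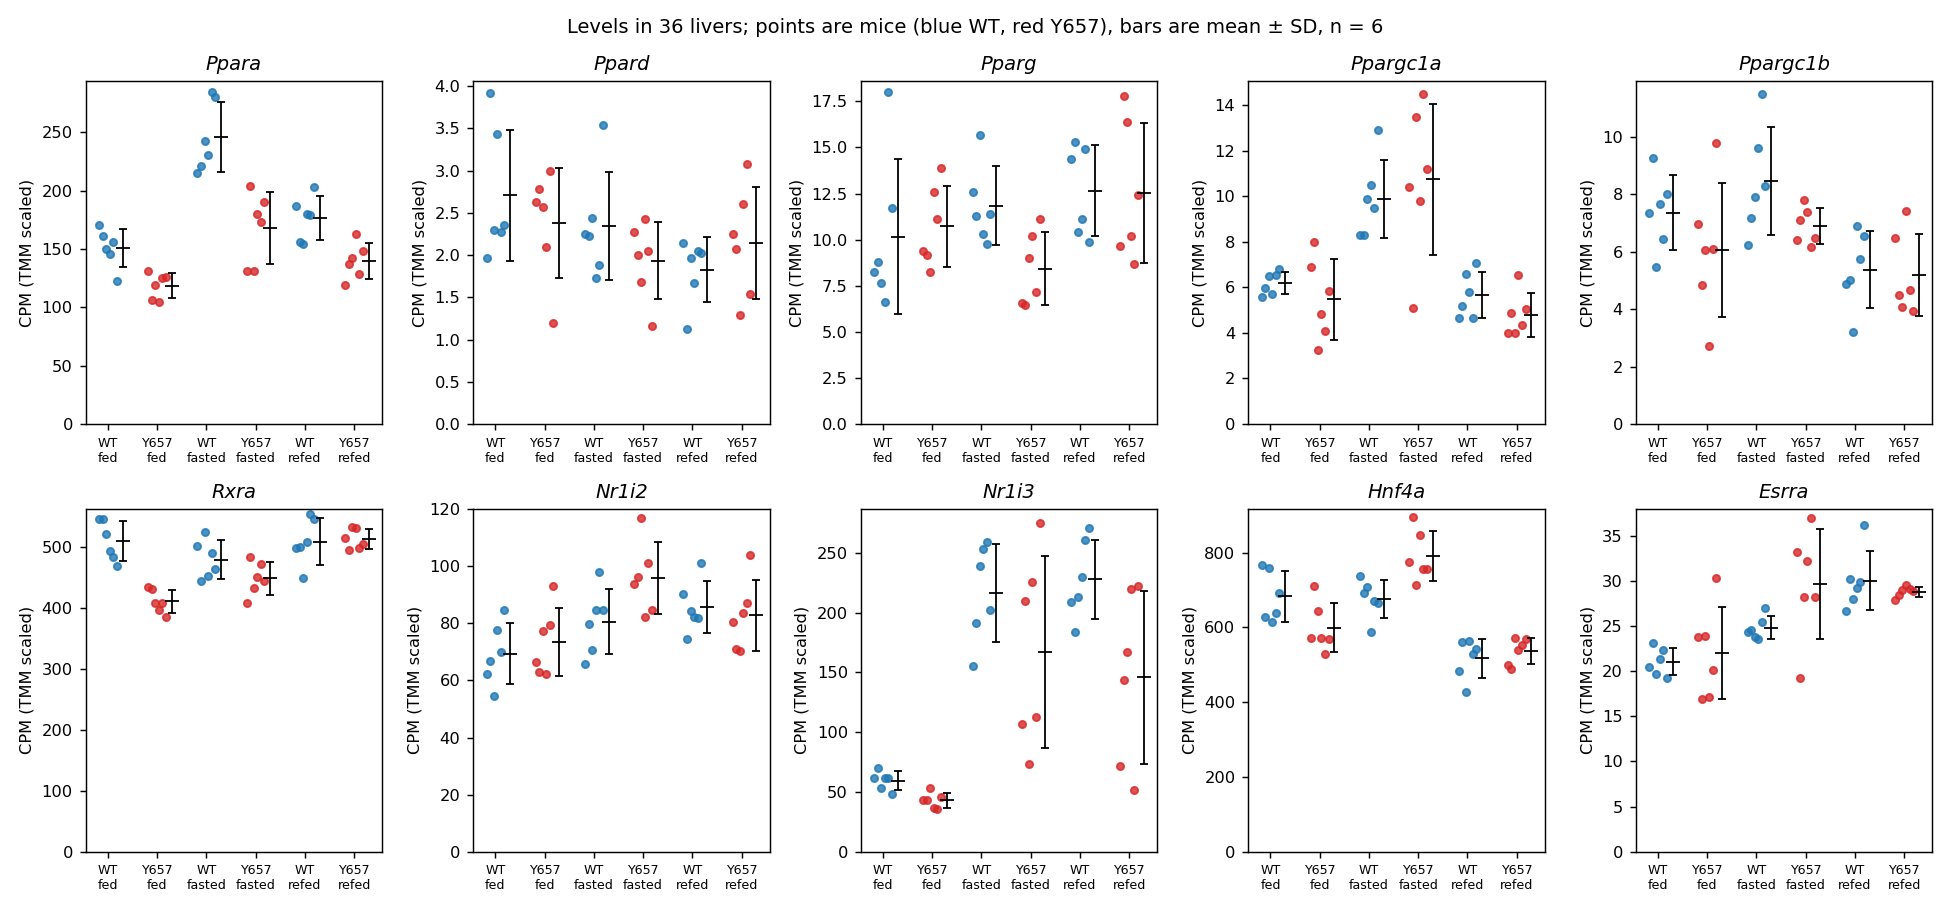
Level of each of the 10 genes in every mouse, in CPM after TMM scaling, with groups on the x axis (blue WT, red mutant) and the mean ± SD of 6 mice beside the points. Ppara in fasted mutant mice (131 to 204 CPM) lies below every fasted WT mouse (215 to 285 CPM), and Nr1i3 rises on fasting in both genotypes.

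Ppara, the fatty acid sensor, was lower in fasted mutant mice than in fasted WT mice. In fasted WT mice its level had a lowest value of 215, a median of 237 and a highest of 285 CPM. In fasted mutant mice the lowest was 131, the median 177 and the highest 204 CPM. The groups did not overlap, as all 6 mutant mice lay below all 6 WT mice. Ppara was 0.684 times the WT level (log2 fold change -0.55 ± 0.10 SE, edgeR adjusted p = 0.000328), and it was the only 1 of the 10 members called in fasted mice, where 13.1% of all genes tested were called. The summed macrophage markers had medians of 330 and 338 CPM, and the hepatocyte markers 91686 and 84744 CPM, in these WT and mutant mice, with 1 of 7 hepatocyte markers called, lower in mutant mice. Stellate cell markers had medians of 401 CPM (range 375 to 449) and 462 CPM (range 406 to 601) and endothelial markers 393 CPM (range 379 to 437) and 408 CPM (range 363 to 438), with 1 of 8 called higher in mutant mice in each list. The sum of the adipocyte markers had a median of 1630 CPM (range 992 to 2106) in WT and 352 CPM (range 122 to 586) in mutant mice, with 1 of the 3 tested, Car3, called lower (-2.26, edgeR adjusted p = 0.000189). Nearly all of that sum was Car3, at a mean of 1644 CPM over all mice and from 110 to 3864 CPM in single mice. Adipoq, Lep and Plin1 were at 0 in 24, 35 and 30 of the 36 libraries. The sum thus followed 1 gene and is no measure of adipocytes in these livers. The part of cell composition in the difference in Ppara was not tested. In fed mice the level ran from 123 over 153 to 171 CPM (lowest, median, highest) in WT and from 105 over 122 to 131 CPM in mutant mice. The groups overlapped, with 3 mutant mice below all WT mice, and the difference of -0.35 (95% interval -0.55 to -0.14) missed the threshold with an edgeR adjusted p of 0.0535. It was called in 4 of 10 alternative settings and in 2 of 12 refits that left out 1 mouse. In refed mice the level ran from 154 over 179 to 203 CPM in WT and from 119 over 139 to 163 CPM in mutant mice. Here 5 mutant mice lay below all WT mice, and the difference of -0.34 (95% interval -0.54 to -0.13) was not called (edgeR adjusted p = 0.246), in a comparison with 0.0287% of genes called. Averaged over the 3 states, a contrast added after the values were seen, Ppara was 0.752 times the WT level (log2 fold change -0.41 ± 0.058 SE, edgeR adjusted p = 4.93e-05), where 11.1% of genes were called.

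Feeding state moved Ppara in both genotypes. On fasting it rose 1.63-fold in WT mice (log2 0.70 ± 0.10 SE, edgeR adjusted p = 7.32e-07) with no overlap between fed and fasted mice. It rose 1.42-fold in mutant mice (log2 0.50 ± 0.10 SE, edgeR adjusted p = 0.000156), where 5 of 6 fasted mice lay above all fed mice. Refeeding lowered it to 0.717 times the fasted level in WT (edgeR adjusted p = 0.000308), again without overlap, and to 0.831 times in mutant mice (edgeR adjusted p = 0.039). The latter call was lost in 4 of 10 alternative settings, and in 8 of 12 refits that left out 1 mouse. The fasting and refeeding responses share the fasted mice. The difference between genotypes in the fasting response was -0.20 (95% interval -0.49 to 0.09) and in the refeeding response 0.21 (95% interval -0.07 to 0.50), neither called.

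Mouse numbers fall into a lower series below 840 and a higher series above 890 in the fasted and refed groups, with 3 mice of each genotype in each. Within them, fasted Ppara differed by -0.57 and -0.55 (mean log2 CPM, mutant minus WT), and refed Ppara by -0.32 and -0.35. In the fed groups the lowest block of mouse numbers is all WT and the highest all mutant, so that the genotypes can be compared within a block only in the middle one, with 2 WT and 3 mutant mice, where the difference was -0.23.

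**Figure D2:**
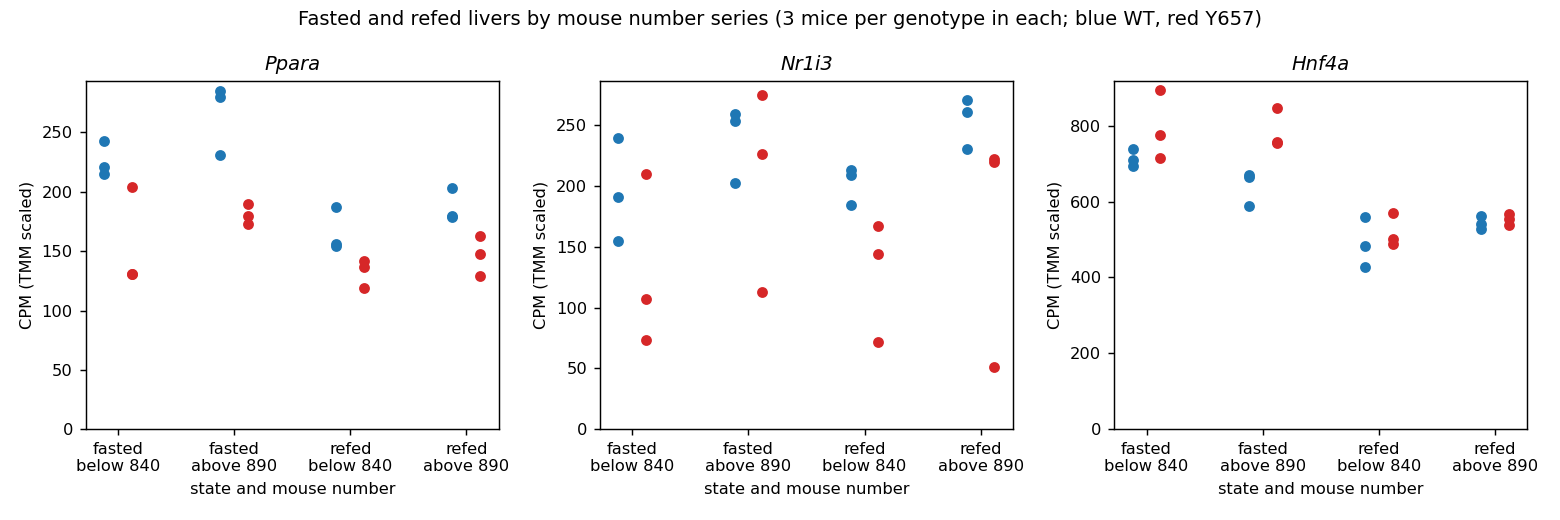
Ppara, Nr1i3 and Hnf4a in fasted and refed mice (CPM after TMM scaling, 1 point per mouse, blue WT, red mutant), split by mouse number below 840 and above 890. Fasted Ppara was lower in mutant mice in both series, by 0.57 and 0.55 on the log2 scale.

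Pparg, the adipogenic receptor, and Ppard showed no genotype call. Pparg ran from 9.76 over 11.3 to 15.7 CPM in fasted WT and from 6.44 over 8.08 to 11.1 CPM in fasted mutant mice, with overlapping groups and a difference of -0.48 (95% interval -0.90 to -0.06, edgeR adjusted p = 0.122). In mutant mice it rose 1.48-fold on refeeding (log2 0.57 ± 0.20 SE, edgeR adjusted p = 0.0322). That call was lost in 3 of the alternative settings and on leaving out any 1 of 5 mice. By mouse number, this rise was 0.95 in the lower and 0.14 in the higher series (mean log2 CPM). The fasted genotype difference of Pparg was -0.84 and -0.16 in the same series. In WT mice Pparg changed by 0.105 on refeeding (95% interval -0.30 to 0.51), which was not called. Ppard stayed between 1.12 and 3.92 CPM over all mice, with 95% intervals for the genotype effect as wide as -0.77 to 0.20 in fasted mice.

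Rxra, the obligate partner of the PPARs, PXR and CAR, was lower in fed mutant mice. Its level ran from 470 over 508 to 547 CPM in fed WT and from 386 over 408 to 435 CPM in fed mutant mice, without overlap. This was 0.805 times the WT level (log2 fold change -0.31 ± 0.063 SE, edgeR adjusted p = 0.00736), the only 1 of 10 members called among fed mice, where 2.37% of genes were called. Averaged over the 3 states Rxra was 0.912 times the WT level (edgeR adjusted p = 0.0163), a call lost with scaling by library size alone (adjusted p = 0.228). With only the fed libraries in the fit the adjusted p was 0.0667 at a difference of -0.32, and with the fed number blocks as a covariate the difference was -0.16 (adjusted p = 0.996). Fasted mice differed by -0.10 (95% interval -0.22 to 0.03) and refed mice by 0.01 (95% interval -0.12 to 0.14). Rxra rose 1.14-fold on refeeding in mutant mice (edgeR adjusted p = 0.0161), from 409 to 484 CPM when fasted to 496 to 534 CPM when refed, a call lost in 3 of 10 alternative settings.

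**Figure D3:**
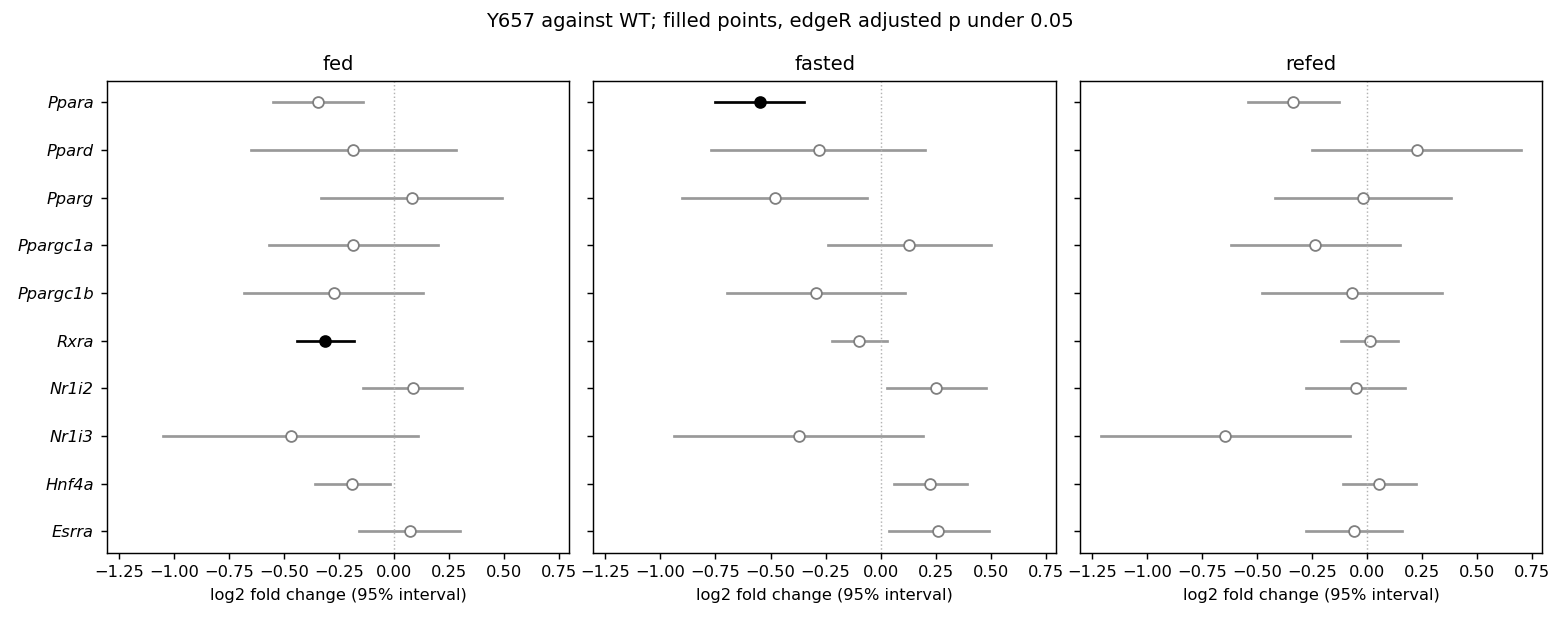
Log2 fold change of mutant against WT mice for the 10 genes, with 95% intervals, in fed, fasted and refed mice (6 against 6 in each). Filled points passed an edgeR adjusted p of 0.05: Rxra in fed mice (-0.31) and Ppara in fasted mice (-0.55).

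Ppargc1a, the fasting-induced coactivator, moved with feeding state in both genotypes. It ran from 5.60 over 6.23 to 6.80 CPM in fed WT and from 8.28 over 9.68 to 12.9 CPM in fasted WT mice, without overlap. The rise was 1.60-fold in WT (log2 0.67 ± 0.19 SE, edgeR adjusted p = 0.00491) and 1.99-fold in mutant mice (log2 0.99 ± 0.19 SE, edgeR adjusted p = 6.48e-05). Refeeding brought it to 0.572 times the fasted level in WT (edgeR adjusted p = 0.000966) and to 0.444 times in mutant mice (edgeR adjusted p = 6.64e-06). Among fed and fasted mice the spread was larger in mutant mice, whose fasted values ran from 5.10 to 14.5 CPM. Ppargc1b fell on refeeding in WT mice to 0.644 times the fasted level (edgeR adjusted p = 0.0143), which was lost without 1 of the fasted WT mice (adjusted p = 0.0554). In mutant mice the change was -0.41 (95% interval -0.82 to 0.00, edgeR adjusted p = 0.124).

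Nr1i3, which encodes CAR, had the largest fasting response of the 10 members. It ran from 48.1 over 61.6 to 70.2 CPM in fed WT and from 155 over 220 to 259 CPM in fasted WT mice. In mutant mice it ran from 35.4 over 43.3 to 53.0 CPM when fed and from 73.2 over 162 to 275 CPM when fasted. Fed and fasted mice did not overlap in either genotype, with rises of 3.64-fold (edgeR adjusted p = 6.61e-06) and 3.9-fold (edgeR adjusted p = 3.52e-06). It stayed high after refeeding in WT mice, at 184 to 271 CPM. Mutant mice spread widely, from 51.5 to 222 CPM when refed, and 4 of the 6 lay below all refed WT mice, at a difference of -0.65 that was not called (95% interval -1.21 to -0.08, edgeR adjusted p = 0.433). The mean over the 3 states was 0.709 times WT (edgeR adjusted p = 0.0438), which was lost in 2 of 8 alternative settings and 21 of 36 refits without 1 mouse. Nr1i3 overlaps Tomm40l on the other strand, 7 libraries held counts for it that were not whole, and the strand setting of the counting is not given in the sources used here. Tomm40l rose 2.61-fold in WT and 2.82-fold in mutant mice on fasting. Whether the counting kept reads of the pair apart is not known.

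Nr1i2, which encodes PXR, moved less. It ran from 62.3 over 71.9 to 92.9 CPM in fed and from 82.3 over 95 to 117 CPM in fasted mutant mice, with overlapping groups. This was a 1.30-fold rise (log2 0.38 ± 0.11 SE, edgeR adjusted p = 0.00737). In WT mice the change was 0.22 (95% interval -0.01 to 0.44), and the difference between the genotypes, 0.17, had an interval of -0.15 to 0.48.

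Hnf4a, the receptor that maintains hepatocyte identity, was the only member called in the test of a genotype difference in the fasting response. In WT mice it ran from 614 over 666 to 768 CPM fed and from 589 over 681 to 737 CPM fasted, and the groups overlapped. In mutant mice it ran from 714 over 766 to 894 CPM fasted, and all 6 fed values lay below that range, from 529 CPM upwards with a median of 571 CPM. The fasting response was -0.02 (95% interval -0.18 to 0.15) in WT and 0.40 ± 0.082 SE in mutant mice (edgeR adjusted p = 0.000222). The difference of 0.41 ± 0.12 SE passed the threshold (edgeR adjusted p = 0.0333), as did 4.35% of genes, and was lost in 3 of 9 alternative settings (adjusted p up to 0.0675) and in 8 of 24 refits without 1 mouse. Between genotypes Hnf4a differed by -0.19 in fed mice (edgeR adjusted p = 0.206) and by 0.22 in fasted mice (edgeR adjusted p = 0.0654), neither called. Within the middle block of fed mouse numbers, the only one with both genotypes, the fed difference was -0.06 (mean log2 CPM). Refeeding lowered Hnf4a in both genotypes, to 0.764 times in WT (edgeR adjusted p = 0.000347) and 0.679 times in mutant mice (edgeR adjusted p = 1.73e-06), without overlap between fasted and refed mice. Its locus in the files also spans the antisense gene Hnf4aos.

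Esrra, the partner of PGC-1α in mitochondrial gene control, rose 1.35-fold on fasting in mutant mice (log2 0.43 ± 0.11 SE, edgeR adjusted p = 0.00272). The fasted mutant values ran from 19.3 over 30.2 to 37.0 CPM against 16.9 over 22 to 30.3 CPM when fed. With only the fed and fasted mutant libraries in the fit the adjusted p was 0.061. In WT mice all 6 fasted values (23.6 to 27 CPM) lay above all fed values (19.3 to 23.1 CPM), with a change of 0.24 (95% interval 0.01 to 0.47) that was not called (edgeR adjusted p = 0.103). With only the fed and fasted WT libraries in the fit, the WT change was called (0.25, edgeR adjusted p = 0.0101). The difference between the genotypes in the fasting response, 0.19, had an interval of -0.13 to 0.51 and was not called. Its locus overlaps Trmt112 on the other strand.

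Counted together, 3 of 10 members were called higher on fasting in WT mice and 6 in mutant mice. Of all genes, 32% and 32.9% were called in either direction. No member was called lower, while 7 of 10 in WT and 8 of 10 in mutant mice had a positive change, called or not. Only Hnf4a was called for a genotype difference of this response. On refeeding 4 were called lower in WT mice, and 3 lower and 2 higher in mutant mice, against 30.2% and 31.3% of all genes. No member was called by edgeR between genotypes in refed mice. There 2 of 10 members (Ppara and Nr1i3) and 1329 of 13945 genes had an unadjusted p under 0.05. Nor was any member called for a genotype difference of the refeeding response, where 2.06% of genes were called. In that test 1 of 10 members (Esrra) and 2163 of 13945 genes had an unadjusted p under 0.05. DESeq2 also called 0 members in both comparisons. The median difference of the members between genotypes was -0.19 in both fed and fasted mice, against 0.01 and 0.00 over all genes. In refed mice it was -0.06, against 0.01 over all genes.

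**Figure D4:**
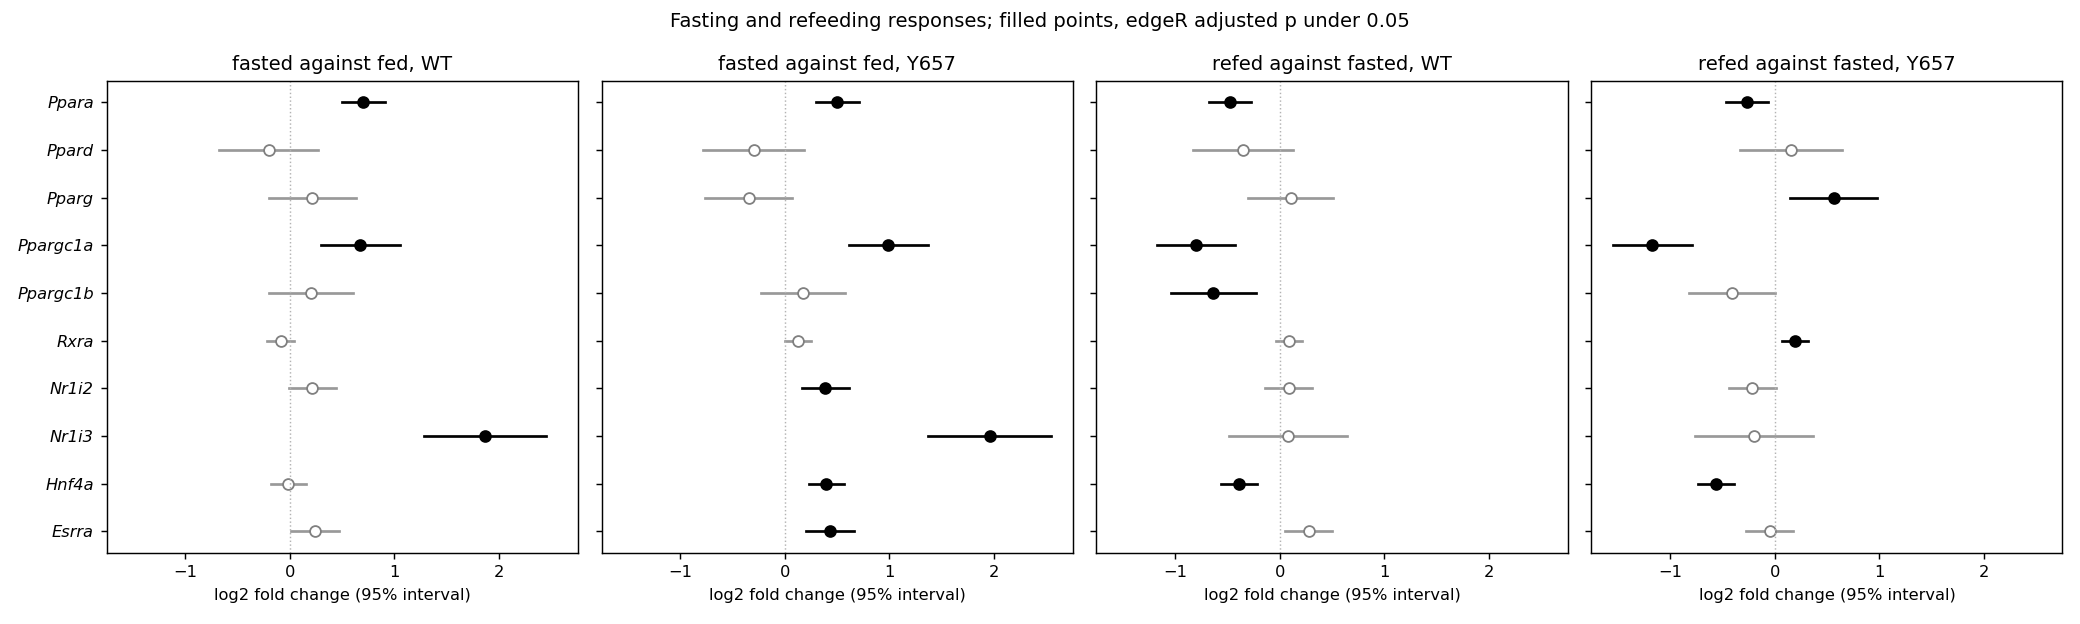
Log2 fold change of the 10 genes with 95% intervals on fasting (fasted against fed) and refeeding (refed against fasted) in WT and mutant mice, 6 mice a group. Filled points passed an edgeR adjusted p of 0.05. Nr1i3 has the largest fasting response, 1.87 in WT and 1.96 in mutant mice, and Hnf4a has a response of -0.02 in WT and 0.40 in mutant mice.

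The known targets of PPARα, a list chosen with earlier results of these data known, were nearly all called on fasting. All 39 listed targets were called higher in WT mice (median log2 fold change 1.57, against 0.01 over all genes). In mutant mice all 39 had a positive change (median 1.23, against -0.01) and 38 of them were called. These calls are 100% and 97.4% of the list, where 32% and 32.9% of all genes were called in either direction. Slc22a5, a carnitine transporter, rose by 2.60 in WT and by 2.63 in mutant mice on the log2 scale. In fasted mice 5 of the 39 were called lower in mutant than in WT mice and none was called higher. The median was -0.19, against 0.00 over all genes. The 5 are 12.8% of the targets, near the 13.1% of all genes called in that comparison. These included the lipid droplet protein gene Plin2 (-0.39 ± 0.11 SE, edgeR adjusted p = 0.0172) and the mitochondrial carnitine palmitoyltransferase gene Cpt2 (-0.29 ± 0.089, edgeR adjusted p = 0.0261). Cpt1a, the gatekeeper of mitochondrial oxidation, differed by -0.23 and was not called (edgeR adjusted p = 0.142). On refeeding 19 of the 39 (48.7%) were called lower in WT and 14 (35.9%) in mutant mice, where 30.2% and 31.3% of all genes were called. No target was called between genotypes in fed or refed mice. For 1 target, Plin2, the fasting response itself differed between genotypes (-0.53, edgeR adjusted p = 0.0471), which is 2.56% of the list against 4.35% of all genes.

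Of 32 tested targets of CAR and PXR, 7 were called higher and 5 lower on fasting in WT, and 6 higher and 10 lower in mutant mice. These were 37.5% and 50% of the list, against 32% and 32.9% of all genes, with medians of 0.08 and -0.32 against 0.01 and -0.01. In fasted mice 5 (15.6%, against 13.1% of all genes) were called lower in mutant mice and none higher, with a median of -0.06 against 0.00. Among the 5 were the transporter gene Abcc3 (-0.78 ± 0.18 SE, edgeR adjusted p = 0.00396) and the bilirubin-conjugating enzyme gene Ugt1a1 (-0.71 ± 0.17, edgeR adjusted p = 0.00418). Of 28 tested HNF4α targets, 5 (17.9%, against the same 13.1%) were called lower and none higher in fasted mutant mice, with a median of -0.08. Of 31 mitochondrial genes listed for ERRα and PGC-1, 4 were called higher and 3 lower in fasted mutant mice. These are 22.6% in all, against the same 13.1%. The median was -0.03, with Cycs higher by 0.49 and Sdha lower (-0.39). Of 7 tested PPARγ targets, 4 (57.1%) were called higher on fasting in WT and 2 (28.6%) in mutant mice, against 32% and 32.9% of all genes. None of the 7 was called between genotypes.

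Among the 30 other nuclear receptors tested, 6 were called lower and none higher in fasted mutant mice. This is 20% of them against 13.1% of all genes, with a median of -0.16 against 0.00. The glucocorticoid receptor gene Nr3c1 differed by -0.38 ± 0.075 SE (edgeR adjusted p = 0.00077), Nr2f2 by -0.44 ± 0.095 (edgeR adjusted p = 0.00182) and Esrrg by -1.76 ± 0.43 (edgeR adjusted p = 0.00515). Of 25 coregulators, 1 (4%, against the same 13.1%), the acetyltransferase gene Kat2a, was called lower (-0.31, edgeR adjusted p = 0.0227). Of 9 signalling partners of PGC-1, Foxa2 was called lower (-0.93 ± 0.19 SE, edgeR adjusted p = 0.00142) and Creb1 higher (0.27, edgeR adjusted p = 0.00436). This is 22.2% of that list, against 13.1% of all genes.

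Across the 36 mice, which share feeding states and genotypes, the 3 genes most like Ppara in log2 CPM included Rab43 (Pearson r = 0.88) and Aqp9 (0.87). The gene most like Nr1i3 was the overlapping Tomm40l (r = 0.99). For Ppargc1a it was Brap (0.81), for Ppargc1b Klhl21 (0.77), for Rxra Cml2 (0.81) and for Hnf4a Man1a2 (0.86). For Nr1i2 it was 1810055G02Rik (0.79) and for Esrra 1110008F13Rik (0.81). Ppard and Pparg were most like 1110037F02Rik (0.60) and 0910001L09Rik (0.65), which no longer came first when the counts were scaled by library size alone. Among the members, Ppara and Nr1i3 had the highest correlation (r = 0.76).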

How the data were processed

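Stranded total RNA libraries of whole liver were read as single 50-base reads per the labels. The authors deposited estimated counts per gene; the labels name Cuffdiff, SAMtools, featureCounts and edgeR without versions, and the counting strand is not given in the sources used here. The labels name mm9, but gene positions in the table match GRCm38. Of counts above 0, 3.33% were not whole (tolerance 1e-09), and counts were rounded. A second deposited table of fitted values was not used.

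All 36 libraries entered 1 edgeR 4.0.16 quasi-likelihood fit (R 4.3.3) with a group term, TMM scaling (factors 0.914 to 1.09) and edgeR's filter on low counts, and adjusted p under 0.05 was a call. The fit was tested on simulated data. Alternatives tried were a likelihood ratio test in edgeR, DESeq2 1.42.0, other scalings and filters, length and GC corrections, mouse number series and leaving out each mouse. All members are named; of each list, genes with the smallest p in fasted mice between genotypes or on fasting in WT mice. Members and lists were chosen with earlier results of these data known. The study names WT littermates as controls for the fed and fasted mice, but which mice shared a litter is not given in the sources used here. Some genes that the rule would name are not reported here.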

Additional observations from a re-analysis of the deposited data

Results flagged for a closer look

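Esrra in refed WT mice had 1 mouse apart from the others, a mouse at 36.2 CPM, where the other 5 ran from 26.7 to 30.2 CPM (its gap to them was 0.63 of the whole range). It was 1 of 60 sets of 6 mice examined, and chance alone sets a mouse apart in about 1 set in 20. The fasting response of Hnf4a differed between genotypes, by 0.41 on the log2 scale, in the edgeR test of that difference.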

How the results depend on the processing

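Of 2630 values of the members under alternatives, 2550 stayed on their side of the threshold, and 41 of these were uncalled values that changed sign. A call was lost in 62 and gained in 18, and no called value reversed. Between genotypes in fed mice 1 member, Rxra, was called. With the likelihood ratio test, DESeq2 and the length and GC corrections 2 were called, where Ppara joined Rxra. It was 0 members with only the libraries compared or with mouse number series, and 1 to 2 without 1 mouse. Of the 13945 genes 2.37% were called there, against 3.7% with the likelihood ratio test, 5.42% with library size alone, 1.48% with no filter, 0.215% with only the libraries compared, 4.45% with DESeq2 and 0.488 to 6.43% without 1 mouse. With number series edgeR called 0 genes, and 634 had an unadjusted p under 0.05. In fasted mice 2 members were called with library size alone, with at least 10 counts in every library and with DESeq2, where Hnf4a joined Ppara, and 1 to 2 without 1 mouse, with 8.38 to 14.4% of genes. In refed mice 0.129% of genes were called with the likelihood ratio test and 0.172% with DESeq2, and 0.00717 to 0.043% without 1 mouse. On refeeding in mutant mice 5 members were called, against 3 with no filter and with only the libraries compared, 2 with number series, and 3 to 6 without 1 mouse. For the difference of the fasting response, library size alone, no filter and only the libraries compared called 0 members, with 0 to 1 without 1 mouse, and no filter called 2.77% of genes. For the difference of the refeeding response, no filter called 1.09% and the GC correction 1.33% of genes, and leaving out 1 mouse 0.889 to 2.8%. For the mean over states, chosen after seeing the data, library size alone called 1 member and 16.7% of genes. Library size alone moved the median of all genes to 0.11 between genotypes in fed mice, and the share of calls that were higher from 51.2 to 88.9% there, from 49.2 to 64.4% in fasted mice, from 54.5 to 68.3% and 54.7 to 73.1% on refeeding in WT and mutant mice, from 46.2 to 36% on fasting in mutant mice, and from 59.5 to 34.2% for the difference of the fasting response. Where a value changed, the cause was not tested. Number series could not be fitted for the fasting responses, since fed and fasted mice share no series. No paired analysis was possible because each mouse number belongs to 1 mouse.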
